A study of Mus musculus with 25 samples.

Results

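Messenger RNA of 10 genes of the transforming growth factor beta (TGF-beta), activin and myostatin branch was followed in mouse sinoatrial node (SAN), where the heartbeat starts, and in the neighbouring right atrium (RA), which is working muscle. The genes were chosen by name among the 20870 genes listed, and all 10 were listed. They are Mstn, Inhba, Tgfb1, Tgfb2, Tgfb3, Acvr1c, Acvr2a, Acvr2b, Fst and Fstl3. The choice was made with earlier results of these data known, so counts against the share of all genes are descriptions. In the RefSeq annotation Mstn and Tgfb2 lie on chromosome 1, Acvr1c and Acvr2a on chromosome 2, Tgfb1 on chromosome 7, Acvr2b on chromosome 9, Fstl3 on chromosome 10, Tgfb3 on chromosome 12, and Inhba and Fst on chromosome 13. SAN and RA of Hcn4-GFP mice on a mixed background, which carry a reporter at the pacemaker channel gene Hcn4, were sampled in the embryo at day 14.5 (E14.5) and after birth at days 4 (P4) and 14 (P14), with 3 libraries in each of the 6 groups. A second set held SAN of E12.5 embryos exposed to tamoxifen at E10.5, in which all 7 libraries carried Hcn4-GFP and loxP-flanked Isl1 alleles (Isl1 fl/fl). The 3 CrePos libraries also carried CAG-Cre/Esr1, a tamoxifen-activated Cre recombinase under a broadly active promoter, and the 4 CreNeg libraries did not. The tissue was outlined by eye on frozen sections and taken by laser capture, so each library is a small region that can hold several cell types. In such samples fewer cells of a type and less RNA per cell cannot be told apart. The labels do not say which libraries came from separate animals, and p-values measure only the spread between these libraries.

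The ligands of this branch are made as dimers with propeptides, which hold the TGF-beta isoforms and myostatin inactive. Tgfb1, Tgfb2 and Tgfb3 encode the TGF-beta isoforms, Mstn encodes myostatin, a brake on skeletal muscle growth, and Inhba encodes the subunit that forms activin A. Acvr2a and Acvr2b encode type II receptors that bind activin and myostatin, Acvr1c encodes ALK7, a type I receptor for activin and Nodal ligands, and Fst and Fstl3 encode secreted proteins that bind and neutralise activin and myostatin. The receptors phosphorylate Smad2 and Smad3, which then act on genes in the nucleus. In the heart the pathway is best known for fibroblast activation, matrix production and the formation of the cushions that give rise to valves.

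Below, 3 genes were called between the tissues over the stages. Mstn and Tgfb2 were higher in SAN. Acvr1c was lower there at E14.5 but not at P14, and its calls depended on the tool used. The start regions of these 3 genes are shown for reference. They are RefSeq promoter windows on GRCm38.p6, 250 bases before to 50 after the start, printed 5′ to 3′ on the strand of the gene. Capitals mark 3 motifs on either strand: the TATA box, written TATAAA; the E-box, written CANNTG; and the Smad-binding element, written CAGAC.
Mstn, chr1:53061390-53061689, plus strand: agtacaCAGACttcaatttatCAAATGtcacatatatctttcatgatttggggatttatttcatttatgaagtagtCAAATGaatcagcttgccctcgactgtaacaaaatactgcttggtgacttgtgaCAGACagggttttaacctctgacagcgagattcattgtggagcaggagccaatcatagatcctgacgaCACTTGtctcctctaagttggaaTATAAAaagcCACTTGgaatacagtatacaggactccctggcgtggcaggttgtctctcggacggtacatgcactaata
Tgfb2, chr1:186705940-186706239, minus strand: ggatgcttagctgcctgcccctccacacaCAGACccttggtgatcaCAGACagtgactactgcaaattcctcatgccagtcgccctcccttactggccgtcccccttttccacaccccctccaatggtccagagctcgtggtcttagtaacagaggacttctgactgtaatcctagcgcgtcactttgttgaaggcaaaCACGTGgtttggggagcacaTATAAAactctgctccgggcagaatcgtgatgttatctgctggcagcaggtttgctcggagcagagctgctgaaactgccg
Acvr1c, chr2:58357709-58358008, minus strand: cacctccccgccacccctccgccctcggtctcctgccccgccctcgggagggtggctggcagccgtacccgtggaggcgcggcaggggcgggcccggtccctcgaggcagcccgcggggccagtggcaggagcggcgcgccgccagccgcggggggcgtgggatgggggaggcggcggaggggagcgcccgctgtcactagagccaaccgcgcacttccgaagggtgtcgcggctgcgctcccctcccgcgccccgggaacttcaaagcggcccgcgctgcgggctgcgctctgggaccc

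The Mstn window held 1 TATAAA, 4 CANNTG and 2 CAGAC matches. The Tgfb2 window held 1 TATAAA, 1 CANNTG and 2 CAGAC matches. The Acvr1c window shown held no match to any of the 3, and a second Acvr1c window held 1 CANNTG. None of the marked matches overlapped another. Of all 32851 windows of this length, 13.6% held TATAAA, 72.3% held CANNTG and 49.6% held CAGAC, so the E-box and the Smad element are common in such windows. Windows were found for 8 of the 10 genes, and none was found for Fst or Tgfb3. A match is a description of letters, and binding was not measured.

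Depth was 5101711 to 17997497 recovered reads in the 18 SAN and RA libraries and 45298052 to 88020474 in the 7 E12.5 libraries. Levels are given in CPM, the deposited signal divided by one constant, and 1 read was worth at most 0.215 CPM in the 18 libraries. SAN markers went with the labels: the summed level of 8 was 2479.6 to 4782 CPM in SAN libraries and 155 to 279.9 CPM in RA libraries. The sum of 9 working atrial markers was higher in SAN at E14.5, at 8570 to 9048 CPM against 5817 to 7830 CPM in RA. At P14 it was lower in SAN, at 6502 to 7497 CPM against 10806 to 14495 CPM, as at P4. The sum of 5 ventricular markers was higher in SAN at E14.5, at 2295 to 4200 CPM against 1330 to 1682 CPM, and lower at P14. SAN E14.5 replicate 1 stood apart in Myl2, a ventricular gene, at 829 CPM against at most 24.5 CPM in the other 17 libraries, and RA P4 replicate 3 was the shallowest. Without SAN E14.5 replicate 1 the SAN minus RA difference at E14.5 was 3.68 for Mstn and −2.59 for Acvr1c, and both remained called in limma (adjusted p = 0.0022 and 0.015). Differences are on the log2(CPM + 1) scale with their SE, which understates the change of low genes, and adjusted p-values are from limma with Benjamini-Hochberg adjustment over all genes tested unless another tool is named. A gene was called at an adjusted p under 0.05. All 10 genes passed the filter of 1 CPM in at least 3 of the 18 libraries.

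**Figure D1:**
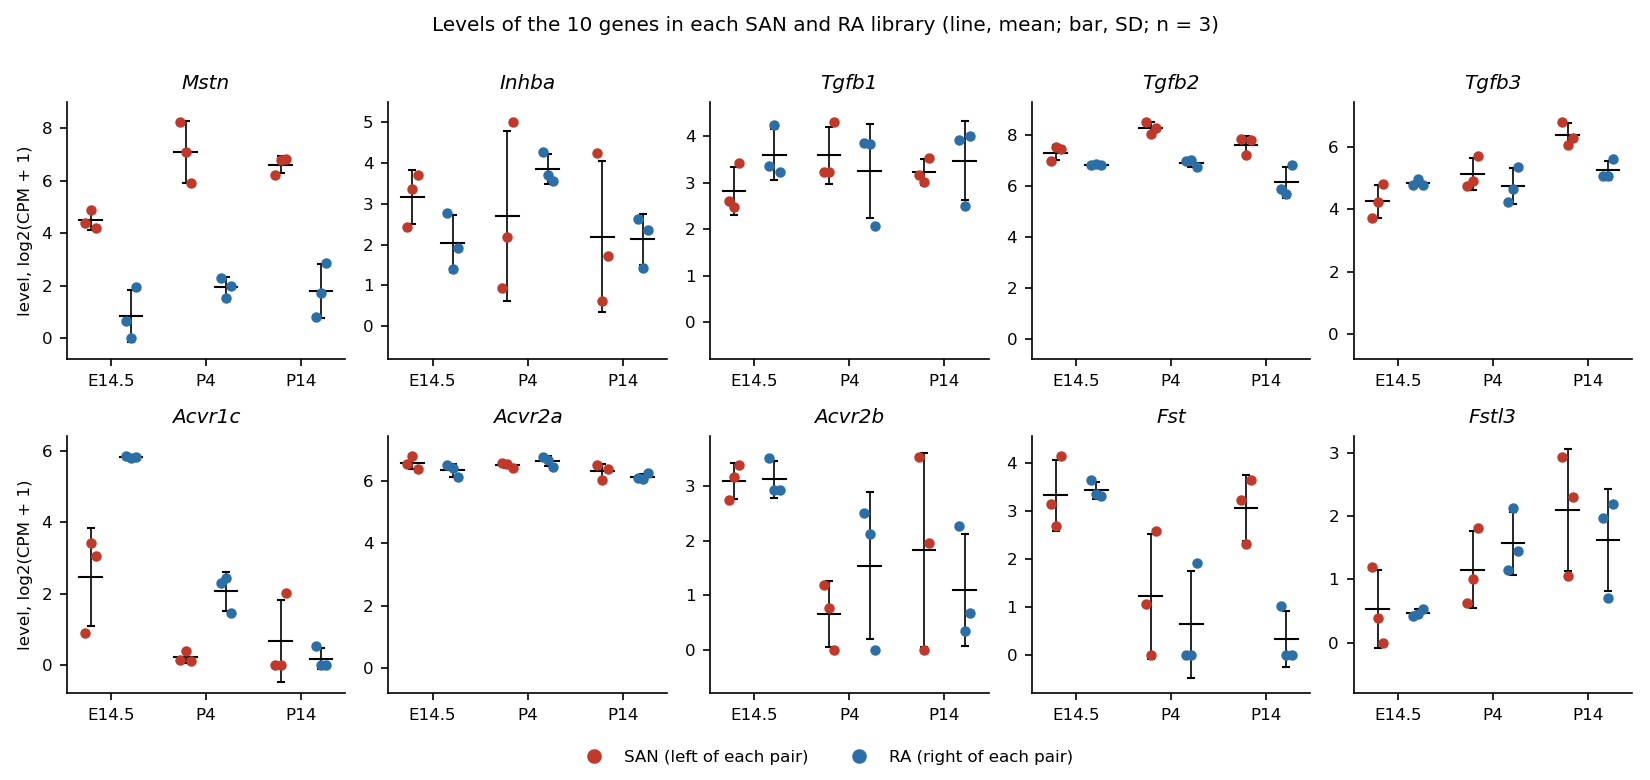
Level of each of the 10 genes as log2(CPM + 1) in every SAN library (left of each pair) and RA library (right) at E14.5, P4 and P14, with the mean as a line and the SD as a bar (n = 3). Mstn was at 17.3 to 305 CPM in all SAN libraries and at most 6.20 CPM in all RA libraries, while Acvr1c was highest in RA at E14.5.

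The comparison of SAN with RA asks which of these genes differ between the pacemaker region and the muscle beside it. Over the 3 stages together 3 of the 10 were called, Mstn and Tgfb2 higher in SAN and Acvr1c lower, against 11.5% of all genes tested. The median difference of the 10 was 0.07 and that of all 17568 genes tested was −0.01. The other 7 were not called. Mstn had the largest difference of the 10.

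Among the ligands, Mstn was higher in SAN than in RA at every stage. At E14.5 it had 20.0, 28.6 and 17.3 CPM in SAN libraries, against 0.564, 0 and 2.85 CPM in RA libraries. At P4 it had 305, 138 and 59.8 CPM in SAN, against 3.87, 1.89 and 3.01 CPM in RA. At P14 it had 74.6, 110.0 and 111 CPM in SAN, against 0.730, 2.32 and 6.20 CPM in RA. Each of the 9 SAN libraries was above all 9 RA libraries, which held for 1 of the 10 genes, against 0.990% of genes tested. The difference was 4.54 ± 0.33 over the stages (adjusted p = 1.7e-09), and it was 3.63 ± 0.58 at E14.5 (adjusted p = 0.00035), 5.16 ± 0.58 at P4 (adjusted p = 2.7e-06) and 4.83 ± 0.58 at P14 (adjusted p = 1.1e-05). Mstn remained called in all 4 of these comparisons under every alternative and without any single library. Skeletal muscle is where myostatin is best known, and the summed level of the 6 measured of 9 skeletal muscle markers was 36.8 to 172 CPM in SAN libraries and 42.7 to 302 CPM in RA libraries. Of these 6, Myog was at 0 in all SAN libraries at P4, Myh4 in all SAN libraries at P14 and Myh3 in all RA libraries at P14. The part of skeletal muscle in the level of Mstn was not tested.

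Tgfb2, the isoform prominent in cushion formation, was next. It had 125, 181 and 171 CPM in SAN libraries at E14.5, against 112, 114 and 113 CPM in RA libraries. At P4 it had 367, 263 and 304 CPM in SAN, against 125, 129 and 105 CPM in RA. At P14 it had 225, 148 and 219 CPM in SAN, against 57.8, 50.7 and 113 CPM in RA. The tissues did not overlap at any stage, as in 26.6% of genes tested at E14.5, 18.5% at P4 and 19.7% at P14. The difference was 1.10 ± 0.14 over the stages (adjusted p = 8.4e-06). It was called at P4, at 1.37 ± 0.25 (adjusted p = 0.00099), and at P14, at 1.47 ± 0.25 (adjusted p = 0.00072). At E14.5 it was 0.47 ± 0.25 (adjusted p = 0.37), and the change of the tissue difference from E14.5 to P14 was 1.00 ± 0.35 (adjusted p = 0.15), so a gap that widens was not shown.

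Tgfb3 was not called at any stage. At P14 it had 111, 65.2 and 76.9 CPM in SAN libraries, against 32.7, 32.9 and 47.7 CPM in RA libraries. All 3 SAN libraries were above all 3 RA libraries there, at 1.13 ± 0.35 (adjusted p = 0.069). It was called when only the 6 libraries of that stage were fitted (adjusted p = 0.025). Over the stages its difference was 0.31 ± 0.20 (adjusted p = 0.40). Tgfb1, the isoform abundant in platelets, ranged from 4.56 to 18.8 CPM in SAN libraries and from 3.23 to 17.9 CPM in RA libraries, with a difference of −0.23 ± 0.31 (adjusted p = 0.75). Inhba varied most between libraries of one group, with 0.918, 3.51 and 30.8 CPM in SAN at P4. Its difference over the stages was 0.02 ± 0.49 (adjusted p = 0.99), and the tissues overlapped.

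Among the receptors, Acvr1c was higher in RA than in SAN in the embryo. It overlaps Gm13544 on the opposite strand, and reads of the pair cannot be told apart where counting ignored strand. The same limit holds for Tgfb2 (Gm29491), Tgfb3 (Gm37804 and Gm48008), Fst (Gm47040) and Fstl3 (Prss57), whose partners are not among the genes listed. At E14.5 Acvr1c had 0.867, 9.80 and 7.32 CPM in SAN libraries, against 57.2, 55.1 and 56.1 CPM in RA libraries. At P4 it had 1, 3 and 1 reads in SAN, against 39, 42 and 8 reads in RA. At P14 it had 0, 0 and 38 reads in SAN, against 3, 0 and 0 reads in RA. The difference was −3.37 ± 0.61 at E14.5 (adjusted p = 0.0014), where 2 of the 10 genes were called against 5.33% of all genes, the other being Mstn. It was −1.58 ± 0.35 over the stages (adjusted p = 0.0041), −1.85 ± 0.61 at P4 (adjusted p = 0.084) and 0.50 ± 0.61 at P14 (adjusted p = 0.79). On recovered reads the call over the stages was lost, with an adjusted p of 0.32 in edgeR and 0.28 in DESeq2, and so was that at E14.5, with 0.12 in edgeR and 0.19 in DESeq2.

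Acvr2a, a type II receptor, differed little between libraries. It overlaps Orc4 on the opposite strand. It ranged from 64.5 to 109.9 CPM in SAN libraries and from 66.1 to 108 CPM in RA libraries, with a difference of 0.10 ± 0.11 over the stages (adjusted p = 0.70). Its pooled SD between libraries of a group was 0.18 log2 units, the lowest of the 10, against 1.24 for Inhba, the highest. Acvr2b was low, with 0 to 10.6 CPM in SAN libraries and 0 to 10.5 CPM in RA libraries. Its difference was −0.06 ± 0.43 (adjusted p = 0.96).

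Among the inhibitors, Fst was called at P14. At P14 it had 8.35, 4.00 and 11.6 CPM in SAN libraries, against 1.02, 0 and 0 CPM in RA libraries. The difference there was 2.73 ± 0.65 (adjusted p = 0.015). At E14.5 it was −0.10 ± 0.65 (adjusted p = 0.97), with 7.88, 5.49 and 16.7 CPM in SAN and 11.5, 9.21 and 8.91 CPM in RA. The tissues' changes from E14.5 to P14 differed by 2.83 ± 0.92 (adjusted p = 0.11). The P14 call was lost in edgeR (adjusted p = 0.17), in DESeq2 (adjusted p = 0.16) and without any of 4 of the 6 libraries (RA replicates 2 and 3, SAN replicates 1 and 3), where the adjusted p reached 0.074. Fstl3 was low, with 0 to 6.63 CPM in SAN libraries and 0.338 to 3.54 CPM in RA libraries, and its difference over the stages was 0.04 ± 0.31 (adjusted p = 0.97).

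By stage, 2 of the 10 were called at P4 (Mstn and Tgfb2), against 5.96% of all genes, and 3 at P14 (Mstn, Tgfb2 and Fst), against 4.55%. Groups did not overlap for 3 of the 10 genes at E14.5 and at P4 (Mstn, Tgfb2 and Acvr1c) and for 4 at P14 (Mstn, Tgfb2, Tgfb3 and Fst), against 26.6% of all genes at E14.5, 18.5% at P4 and 19.7% at P14. At P14 the median of all genes was 0.10 under the deposited scaling and −0.04 when libraries were set to equal upper quartiles, and the calls on Mstn, Tgfb2 and Fst held under both.

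Markers of other cell types also differed between the tissues. At P14 the summed level of 8 smooth muscle and pericyte markers was 3125 to 3849.9 CPM in SAN libraries and 886 to 1268 CPM in RA libraries. That of 8 fibroblast markers was 6389 to 8634 CPM in SAN and 3171 to 4022 CPM in RA. Macrophage markers, 7 genes, summed at P14 to 411 to 589 CPM in SAN and 190 to 204 CPM in RA. Glial and Schwann cell markers, 6 genes, summed at P14 to 111 to 120 CPM in SAN and 28.7 to 34.4 CPM in RA. At E14.5 the sums overlapped for fibroblast markers, at 848 to 2176 CPM in SAN and 766 to 1097 CPM in RA. Valve and cushion markers, 6 genes, overlapped between the tissues at every stage. At P4 they summed to 1089 to 4796 CPM in SAN and 3275 to 6520 CPM in RA. Endothelial and endocardial markers, 9 genes, summed to 509 to 1140.0 CPM over all SAN libraries and to 1672 to 2442 CPM over all RA libraries. At E14.5 this endothelial sum was 509 to 926 CPM in SAN and 1866 to 2442 CPM in RA. Epicardial and mesothelial markers, 7 genes, summed at E14.5 to 17.7, 82.4 and 283 CPM in SAN libraries, against 345, 339 and 435 CPM in RA libraries, with no overlap and in the direction of Acvr1c. Of these 7, 0 were higher and 1 was lower in SAN there, against 5.33% of all genes called. At P14 the epicardial and mesothelial sum was instead higher in SAN, at 262 to 334 CPM against 54.7 to 143 CPM in RA. Acvr1c had 0, 0 and 38 reads in SAN and 3, 0 and 0 reads in RA at that stage. The part of any of these cell types in the differences of Tgfb2, Tgfb3, Fst and Acvr1c was not tested.

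**Figure D2:**
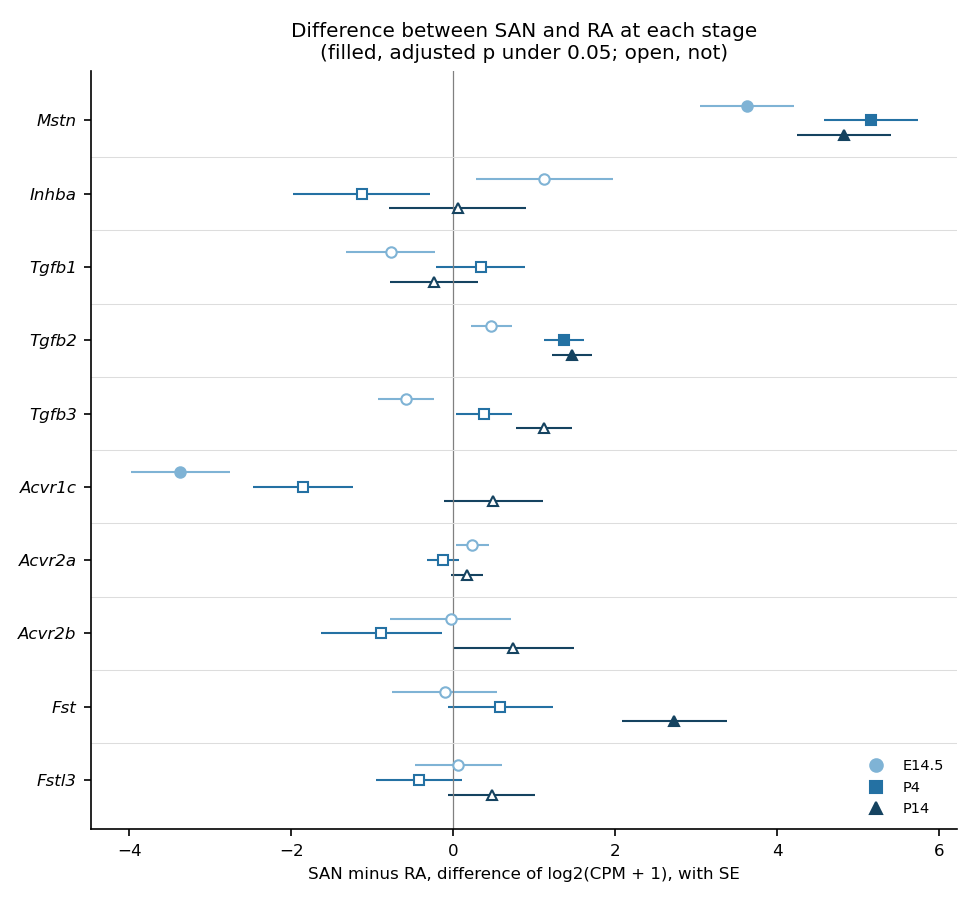
Difference between SAN and RA for each of the 10 genes at E14.5, P4 and P14 on the log2(CPM + 1) scale, with the SE as a bar; filled symbols were called and open ones were not. Mstn lies at 3.63 to 5.16 at all 3 stages, Tgfb2 is called at P4 and P14, and Acvr1c lies at −3.37 at E14.5.

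Change with stage was examined within each tissue, where the comparisons of P4 and of P14 with E14.5 share the E14.5 libraries. In SAN, Mstn rose after birth. Its mean was 21.96 ± 5.92 CPM at E14.5, 167 ± 125 CPM at P4 and 98.6 ± 20.9 CPM at P14 (SD, n = 3 each). The change was 2.61 ± 0.58 for P4 against E14.5 (adjusted p = 0.0063) and 2.12 ± 0.58 for P14 against E14.5 (adjusted p = 0.0095). The P4 and P14 libraries overlapped, at −0.48 ± 0.58 (adjusted p = 0.71). In RA, Mstn was not called between any stages, and the tissues' changes between E14.5 and P14 differed by 1.20 ± 0.82 (adjusted p = 0.55). The SAN marker sum was 3398 to 4782 CPM at E14.5, 3093 to 4609 CPM at P4 and 2479.6 to 2579.9 CPM at P14 in SAN libraries.

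Tgfb3 rose in SAN by P14. It had 12.4, 17.9 and 26.9 CPM at E14.5, 26.1, 29.2 and 51.7 CPM at P4, and 111, 65.2 and 76.9 CPM at P14. P14 libraries were all above those of E14.5 and P4, while P4 overlapped E14.5. The change was 2.12 ± 0.35 for P14 against E14.5 (adjusted p = 9.8e-05), which held under every alternative, and 1.25 ± 0.35 for P14 against P4 (adjusted p = 0.035). P4 against E14.5 was 0.87 ± 0.35 (adjusted p = 0.13). The call for P14 against P4 was lost when only those groups were fitted (adjusted p = 0.083) and without SAN P4 replicate 1 or 2 or SAN P14 replicate 1 or 3, where the adjusted p reached 0.15. In RA the change of Tgfb3 from E14.5 to P14 was 0.41 ± 0.35 (adjusted p = 0.43), and the tissues' changes differed by 1.71 ± 0.49 (adjusted p = 0.066). In SAN the smooth muscle sum was 778 to 871 CPM at E14.5 and 3125 to 3849.9 CPM at P14. At P4 it was 885, 920 and 3359 CPM in replicates 1, 2 and 3. SAN P4 replicate 3 also had the highest Tgfb3 (51.7 CPM), Inhba (30.8 CPM) and Tgfb1 (18.8 CPM) of its group. The fibroblast sum in SAN was 848 to 2176, 3254 to 5526 and 6389 to 8634 CPM at E14.5, P4 and P14. The part of these cell types in the rise of Tgfb3 was not tested.

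In SAN, Tgfb2 was higher at P4 than at E14.5, by 0.97 ± 0.25 (adjusted p = 0.018). Without SAN E14.5 replicate 1 the adjusted p was 0.11, and without SAN P4 replicate 1 it was 0.077. P14 against P4 was −0.67 ± 0.25 in SAN (adjusted p = 0.13). In RA, Tgfb2 fell by 0.70 ± 0.25 from E14.5 to P14 (adjusted p = 0.047). The median of all genes in this comparison was −0.37, and −0.11 with equal upper quartiles, where Tgfb2 was at −0.38 (adjusted p = 0.34). In edgeR and in DESeq2 it was at −0.25 (adjusted p = 0.60 in both). The call was also lost without any of 5 of the 6 libraries, all but RA P14 replicate 3, where the adjusted p reached 0.23. Without RA P14 replicate 3, the highest of its group, P14 against P4 in RA was called, at −1.12 (adjusted p = 0.0078), as was the tissues' difference in change, at 1.35 (adjusted p = 0.027).

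Acvr1c fell with stage in RA. Its mean was 56.1 ± 1.05 CPM at E14.5, 3.36 ± 1.44 CPM at P4 and 0.146 ± 0.253 CPM at P14 (SD, n = 3 each). The 3 stages did not overlap, and the change was −5.66 ± 0.61 for P14 against E14.5 (adjusted p = 9.5e-07), which held under every alternative. The epicardial and mesothelial sum in RA was 339 to 435 CPM at E14.5, 68.6 to 188 CPM at P4 and 54.7 to 143 CPM at P14. In SAN this sum did not fall, at 17.7 to 283 CPM at E14.5, 138 to 286 CPM at P4 and 262 to 334 CPM at P14. Of its 7 markers, 5 were lower in RA at P4 than at E14.5 and 2 at P14 than at E14.5, with medians of −3.20 and −2.35. Of all genes, 6.79% and 22.7% were called in these comparisons. Their part in the fall of Acvr1c was not tested. P4 against E14.5 was −3.77 ± 0.61 (adjusted p = 0.00035), with 0.051 in DESeq2. P14 against P4 was −1.89 ± 0.61 (adjusted p = 0.068). In SAN, where it started lower, P4 against E14.5 was −2.25 ± 0.61 (adjusted p = 0.026) and P14 against E14.5 was −1.79 ± 0.61 (adjusted p = 0.036). The SAN call at P4 was lost without SAN E14.5 replicate 2 or 3 or SAN P4 replicate 1 or 2, where the adjusted p reached 0.14. That at P14 was lost with a pseudocount of 5, without a filter, in edgeR and DESeq2 and when only those groups were fitted, up to an adjusted p of 0.25, and without SAN E14.5 replicate 2 or 3 or SAN P14 replicate 1 or 2, up to 0.19. The tissues' changes from E14.5 to P14 differed by 3.87 ± 0.87 (adjusted p = 0.020), the 1 call among the 10 in that test, against 2.27% of all genes. It was lost with a pseudocount of 0.25 (adjusted p = 0.092), in edgeR (0.11) and DESeq2 (0.095), without SAN E14.5 replicate 1 (0.064) and without SAN P14 replicate 3 (0.053).

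In RA, Fst fell by 2.79 ± 0.65 from E14.5 to P4 (adjusted p = 0.0090) and by 3.10 ± 0.65 from E14.5 to P14 (adjusted p = 0.0013). It had 0, 0 and 2.80 CPM in RA at P4, and both RA calls were lost in edgeR and DESeq2, with an adjusted p of up to 0.32 at P4 and up to 0.070 at P14. Without RA P4 replicate 2 the adjusted p at P4 was 0.053. In SAN it fell by 2.11 ± 0.65 from E14.5 to P4 (adjusted p = 0.047), and P14 against E14.5 was −0.26 ± 0.65 (adjusted p = 0.82). In SAN, Acvr2b fell by 2.44 ± 0.75 from E14.5 to P4 (adjusted p = 0.046), with 1.28, 0.701 and 0 CPM at P4 against 5.71, 7.95 and 9.43 CPM at E14.5. Fstl3 rose in SAN by 1.56 ± 0.54 from E14.5 to P14 (adjusted p = 0.037). Each of these 3 SAN calls depended on single libraries. That on Acvr2b was lost without any one of the 6 (adjusted p of 0.059 to 0.12), and that on Fst without any but SAN P4 replicate 3 (up to 0.23). That on Fstl3 was lost without SAN E14.5 replicate 2 or 3 or SAN P14 replicate 1 or 3 (up to 0.17). In edgeR all 3 were lost. Over the settings other than single libraries left out, the adjusted p reached 0.18 for Acvr2b, 0.51 for Fst and 0.078 for Fstl3.

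In counts, 5 of the 10 were called in SAN for P4 against E14.5, against 8.24% of all genes (3 in edgeR and in DESeq2), and 4 for P14 against E14.5, against 24.3%. P14 against P4 in SAN gave 1, against 5.59%. In RA the numbers were 2 for P4 against E14.5, against 6.79%, and 3 for P14 against E14.5, against 22.7%. For P14 against P4 in RA limma called 0, with 3 at an unadjusted p under 0.05 and 0 in edgeR and in DESeq2, against 6.76%. Tgfb1, Inhba and Acvr2a were called in none of the stage comparisons.

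Ranked by their means over the 6 groups, Mstn ran from SAN at P4 through SAN at P14 and SAN at E14.5 to RA, where the order was P14, P4 and E14.5. Neighbours in that order overlapped except SAN at P14 and at E14.5, and SAN at E14.5 and RA at P14. Tgfb2 ran SAN at P4, P14 and E14.5, then RA at P4, E14.5 and P14, and only SAN at P4 was clear of its neighbour. For Tgfb3, SAN at P14 was the highest and clear of RA at P14, the next, and for Acvr1c, RA at E14.5 was the highest and clear of SAN at E14.5. For the other 6 genes every neighbouring pair of groups overlapped.

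**Figure D3:**
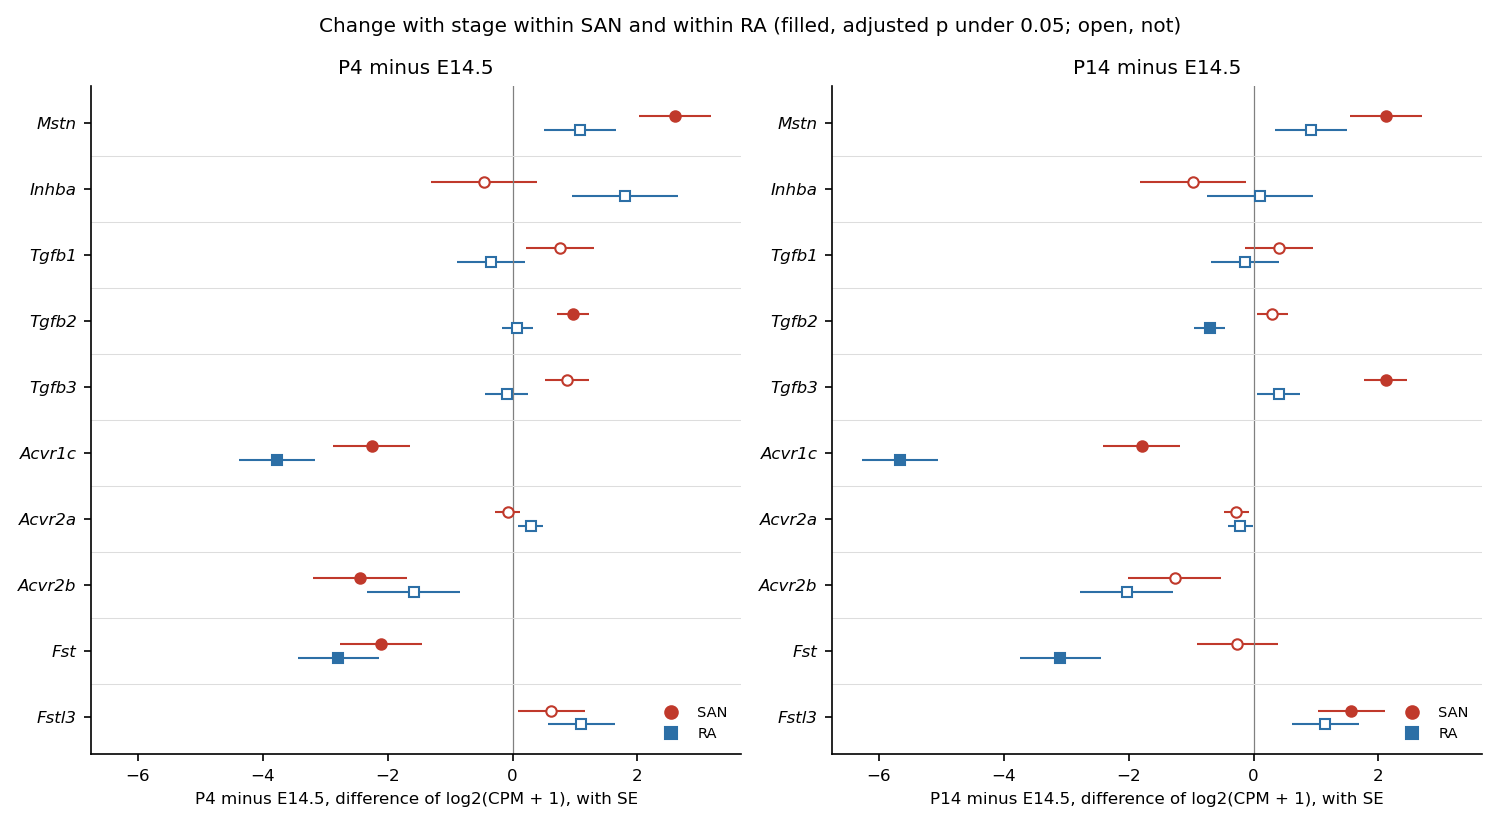
Change from E14.5 to P4 (left) and to P14 (right) of each of the 10 genes within SAN (circles) and RA (squares) on the log2(CPM + 1) scale, with the SE as a bar; filled symbols were called. Mstn and Tgfb3 lie at 2.12 in SAN at P14, and Acvr1c lies at −5.66 in RA at P14.

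Likeness over the 18 libraries was described by Pearson's r of log2(CPM + 1) between each of the 10 and all genes with a mean of at least 5 CPM, with no test, since the libraries share tissue and stage. The gene most like Mstn was Smad9 (r = 0.94), which encodes a Smad of the BMP branch, with means of 81.5 CPM in SAN and 13.2 CPM in RA, followed by Gcgr, the glucagon receptor (r = 0.94), and Mfsd6 (r = 0.93). For Tgfb2 they were Zfp46 (r = 0.91), Zyx (r = 0.90) and Rps6ka6 (r = 0.88). For Tgfb3 they were Prex2 (r = 0.93), Chl1 (r = 0.90) and C1qtnf1 (r = 0.89), and for Acvr1c they were Bmp5 (r = 0.92), Arhgef4 (r = 0.91) and Flrt2 (r = 0.91). The gene most like each of the others was Tbc1d15 for Inhba (r = 0.77), Sav1 for Tgfb1 (r = 0.93), Spin1 for Acvr2a (r = 0.82), Setd8 for Acvr2b (r = 0.83), Il33 for Fst (r = 0.84) and Sgms2 for Fstl3 (r = 0.92). Acvr1c, Fst, Acvr2b and Fstl3 had few reads, with a median of 10, 40, 34 and 9 over the 18 libraries, where such values are weak. Among the 10 genes, Mstn and Tgfb2 were alike at r = 0.82, and Acvr1c and Mstn ran opposite at r = −0.55.

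The rest of the pathway was followed in 63 other genes of 6 lists, of which 60 were measured and tested. Over the stages 10 were higher and 7 lower in SAN than in RA, 28.3% of the 60 against 11.5% of all genes, with 4 lower without RA E14.5 replicate 2 or without RA P14 replicate 2. In SAN 21 rose and 2 fell from E14.5 to P14, 38.3% of the 60 against 24.3% of all genes. In RA 11 rose and 5 fell, 26.7% against 22.7%. The RA numbers became 18 and 2 with equal upper quartiles and 19 and 3 in edgeR and in DESeq2. Without RA E14.5 replicate 1 or 2 or RA P14 replicate 2, 3 fell in RA. The median of all genes in these stage comparisons was −0.18 in SAN and −0.37 in RA, and −0.07 and −0.11 with equal upper quartiles. These lists were drawn with earlier results of these data known.

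A pair of further receptors was lower in SAN over the stages. Tgfbr3, the co-receptor betaglycan, which presents TGF-beta ligands, was at −1.84 ± 0.16 over the stages (adjusted p = 2.9e-08), with 13.2 to 33.3 CPM in SAN and 221 to 305 CPM in RA at E14.5. At P14 it was not called, with 128 to 153 CPM in SAN and 158 to 197 CPM in RA (−0.37 ± 0.28, adjusted p = 0.60). Eng, the endothelial co-receptor endoglin, was at −1.53 ± 0.14 (adjusted p = 5.6e-08). The endothelial marker sum was also lower in SAN, as given above, and its part in these was not tested. Tgfbr3 rose in SAN by 2.48 ± 0.28 from E14.5 to P14 (adjusted p = 1.7e-06), and the tissues' changes differed by 3.04 ± 0.40 (adjusted p = 0.00028).

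Among the genes for latency, processing and activation, 6 of 16 were higher and 2 were lower in SAN, against 11.5% of all genes. Their median was 0.30 against −0.01 for all genes. Furin, a protease that cleaves the propeptides, was at 1.29 ± 0.13 (adjusted p = 1.4e-07), with 201.19 to 456 CPM in SAN libraries and 72.7 to 188 CPM in RA libraries, which did not overlap. Itgb8, a subunit of an integrin that frees latent TGF-beta, was at 2.42 ± 0.26 (adjusted p = 7.1e-07), Ltbp2 at 2.34 ± 0.41 (adjusted p = 0.00040) and Fbn2, fibrillin-2, at 1.52 ± 0.10 (adjusted p = 5.7e-10). From E14.5 to P14 Fbn2 fell by 2.70 ± 0.18 in SAN (adjusted p = 9.7e-10) and fell by 3.38 ± 0.18 in RA (adjusted p = 5.5e-11). Itgb6, the subunit of another activating integrin, rose by 5.27 ± 0.55 in SAN (adjusted p = 4.9e-07) and by 5.18 ± 0.55 in RA (adjusted p = 6.9e-07), and Ltbp4, which tethers latent TGF-beta to matrix, rose by 3.21 ± 0.33 and 3.29 ± 0.33 (adjusted p = 4.3e-07 and 3.2e-07).

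Over the stages 11.5% of all genes were called, for comparison with the tissue counts below. Among inhibitors and decoys, 1 of 7 was called over the stages, Igsf1 at 1.72 ± 0.28 (adjusted p = 0.00015). Among the 13 Smads and their regulators, 1 was called, Pmepa1, a feedback inhibitor, at 0.91 ± 0.20 (adjusted p = 0.0032). Of 20 genes that respond to TGF-beta or activin, 4 were higher and 3 lower in SAN, the median being 0.02. Col1a2, a collagen gene, was at 1.04 ± 0.15 (adjusted p = 2.4e-05), while Fn1, fibronectin, was at −1.29 ± 0.22 (adjusted p = 0.00023). From E14.5 to P14, 9 of the 20 rose and 0 fell in SAN, against 24.3% of all genes called. The largest were Ctgf, 3.83 ± 0.56, and Col3a1, 2.95 ± 0.34. In RA 8 rose and 1 fell, against 22.7% of all genes called, and Ctgf was at 3.27 ± 0.56. The fibroblast sums were 6389 to 8634 CPM at P14 and 848 to 2176 CPM at E14.5 in SAN, and 3171 to 4022 CPM at P14 and 766 to 1097 CPM at E14.5 in RA. Col1a1 is in both lists, and the part of these cells was not tested. Each call given here on a pathway gene for SAN against RA over the stages or for stage was kept under every alternative.

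**Figure D4:**
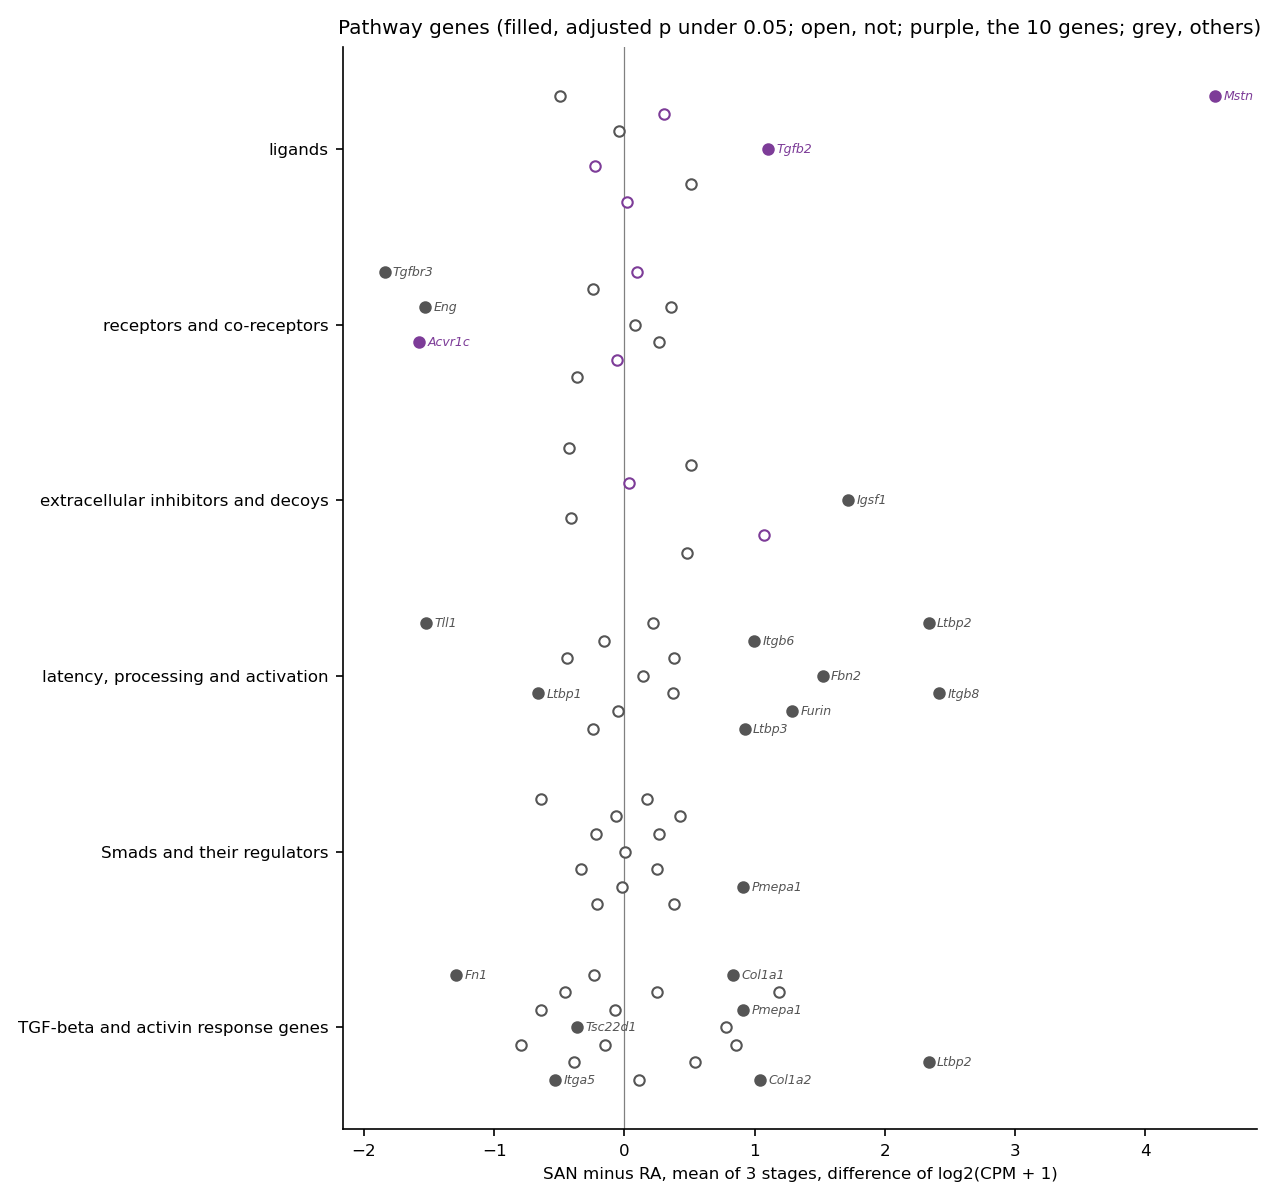
Difference between SAN and RA over the 3 stages for genes of 6 pathway lists on the log2(CPM + 1) scale, with called genes filled and named; purple marks the 10 genes and grey the other pathway genes. Mstn lies at 4.54 and Tgfbr3 at −1.84, and most symbols are open and near 0.

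The comparison of CrePos with CreNeg at E12.5 asks how SAN transcripts differ after Cre-mediated deletion of Isl1, a transcription factor of the node. No library carried Cre without loxP-flanked Isl1, so effects of active Cre and of losing Isl1 cannot be told apart. Isl1 itself was given first as the check of the labels: it had 71.7, 2.85 and 53.9 CPM in the libraries labelled CrePos replicates 1, 2 and 3, against 67.4, 88.5, 47.8 and 83.2 CPM in CreNeg libraries. Replicates 1 and 3 thus lay within the CreNeg range. The table gives 1 value per gene and the deleted part is not given, so this does not show whether the deletion took place. Replicate 2, whose title marks it as an outlier, had 1032 CPM of Myl2 against at most 6.40 CPM in the other 6 libraries, and it was left out of the fit. The SAN marker sum was 969.6 CPM in the library labelled CrePos replicate 1 and 813 CPM in that labelled replicate 3, against 1952 to 2038 CPM in CreNeg. Levels in these deeper libraries were not set against the others.

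In this comparison 0 of the 9 genes tested were called by limma, with 5 at an unadjusted p under 0.05, 0 in edgeR and 1 in DESeq2, against 2.00% of 14595 genes. Fstl3 was under the filter of 1 CPM. The median of the 9 was −0.44 and that of all genes was −0.42, which became −0.03 with equal upper quartiles.

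Mstn and Acvr1c came closest. Mstn had 0.777 and 0.551 CPM in the libraries labelled CrePos replicates 1 and 3, against 8.92, 6.63, 1.71 and 6.49 CPM in CreNeg libraries, a difference of −1.92 ± 0.55 (adjusted p = 0.091). All 4 CreNeg libraries were above both. DESeq2 called it (adjusted p = 0.0061) and edgeR did not (adjusted p = 0.17). Acvr1c had 10.9 and 15.8 CPM in the libraries labelled CrePos, against 0, 1.72, 5.59 and 1.74 CPM in CreNeg, a difference of 2.42 ± 0.61 (adjusted p = 0.057). It was called with a pseudocount of 5 (adjusted p = 0.037), while the adjusted p was 0.37 in edgeR and 0.55 in DESeq2. Without CreNeg replicate 3 both were called, Mstn at −2.32 (adjusted p = 0.015) and Acvr1c at 2.86 (adjusted p = 0.0057). With CrePos replicate 2 in the fit they were −1.63 (adjusted p = 0.098) and 1.97 (adjusted p = 0.097). The SAN marker sum moved with these libraries, and its part was not tested.

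Tgfb2 had 75.0 and 49.9 CPM in the libraries labelled CrePos, against 306, 89.1, 66.5 and 103 CPM in CreNeg, which overlapped (−0.92 ± 0.43, adjusted p = 0.25). Tgfb3 had 8.43 and 7.78 CPM, against 45.9, 9.39, 12.7 and 27.0 CPM in CreNeg, with no overlap (−1.19 ± 0.50, adjusted p = 0.21). Groups that did not overlap made up 3 of the 9 genes, against 30.7% of all genes tested. Fst had 17.4 and 37.7 CPM in the libraries labelled CrePos, against 7.71, 11.8, 29.7 and 8.32 CPM in CreNeg, which overlapped (1.00 ± 0.48, adjusted p = 0.25). Inhba, Tgfb1, Acvr2a and Acvr2b also overlapped, with adjusted p-values of 0.24 to 0.85. Of 56 other pathway genes tested, 2 were higher and 9 lower in the libraries labelled CrePos, 19.6% of the 56 against 2.00% of all genes, and 2 were higher and 2 lower with equal upper quartiles. Without CrePos replicate 3, 0 were higher and 1 was lower. Leaving out CrePos replicate 1 or 3 leaves 1 library, which is assumed to vary like those of CreNeg. Cdkn1a, a cell cycle inhibitor, was higher by 2.88 ± 0.43 (adjusted p = 0.0019), and Tgfbr3 by 2.00 ± 0.44 (adjusted p = 0.027). Furin was lower, at −1.76 ± 0.25 (adjusted p = 0.0012), as was Col1a2 at −2.002 ± 0.33 (adjusted p = 0.0035). Furin remained called under every alternative, at −1.32 with equal upper quartiles. The calls on Cdkn1a, Tgfbr3 and Col1a2 were lost without a filter (adjusted p = 0.063, 0.22 and 0.18) and without CrePos replicate 3 (0.095, 0.63 and 0.27). That on Tgfbr3 was also lost without CrePos replicate 1 (0.070) and in edgeR (0.070), and that on Col1a2 in edgeR (0.061) and with CrePos replicate 2 (0.14). The sum of 8 fibroblast markers was 468 and 278 CPM in the libraries labelled CrePos replicates 1 and 3, against 681 to 1576 CPM in CreNeg, with no overlap. Of 7 of these tested 2 were lower, with a median of −1.10, and of 4 valve and cushion markers tested 2 were lower, with a median of −1.94. Their part in the difference of Col1a2 was not tested.

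**Figure D5:**
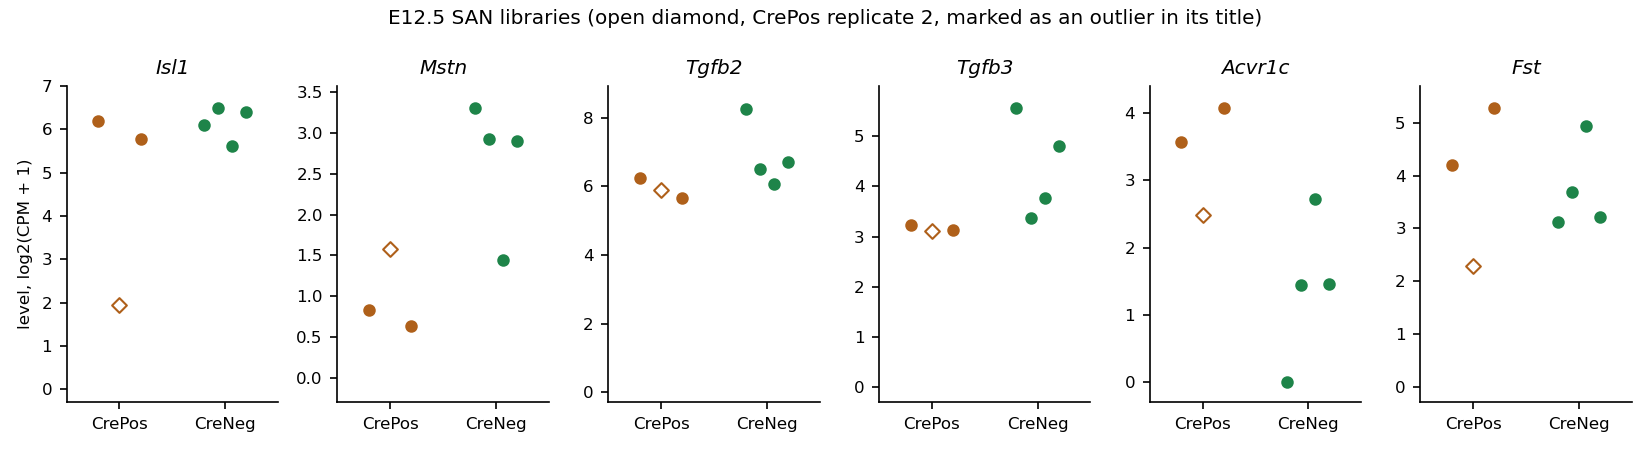
Level as log2(CPM + 1) of Isl1 and of 5 of the 10 genes in each E12.5 library, CrePos left and CreNeg right; the open diamond is CrePos replicate 2, which was left out of the fit. Isl1 is at 71.7 and 53.9 CPM in the other CrePos libraries, within the CreNeg range of 47.8 to 88.5 CPM, while Mstn is below all CreNeg libraries in these 2.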

How the data were processed

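RNA of 25 laser-captured mouse libraries was measured by RNA-seq, 18 of SAN and RA and 7 of the Isl1 set. Per the submitters' processing notes, TopHat2 2.0.6, edgeR and the mm8 build were used, and whether counting used strand is not given in the sources used here. The deposited signal per gene is, by its values, a read count scaled with one factor per library, and dividing it by 24.3374 gave CPM. Whole reads were recovered for at least 99.99% of values in each library (within 0.1 reads), and floors cover counting error only. A floor of 3 reads was worth at most 0.646 CPM in the 18 libraries.

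Differences were fitted on log2(CPM + 1) with limma 3.58.1 in R 4.3.3, with a mean-variance trend. The 18 libraries entered one fit (1 CPM in at least 3 libraries, 17568 genes), and CrePos replicates 1 and 3 and the 4 CreNeg libraries another (1 CPM in at least 2, 14595 genes). P-values were adjusted by Benjamini-Hochberg over all genes tested. All 10 genes are described in each comparison, with up to 4 called genes of the smallest p per pathway list and the 3 genes most alike by Pearson's r. The members and lists were chosen with earlier results of these data known. Alternatives were a pseudocount of 0.25 or 5, no filter, a filter at 5 CPM, equal upper quartiles, edgeR 4.0.16 and DESeq2 1.42.0 on recovered reads, a replicate block, single libraries left out, only the groups compared, and CrePos replicate 2 added. On recovered reads edgeR called 1014 genes higher and 795 lower in SAN than in RA over the stages, and 97 higher and 29 lower in CrePos. Code was tested on simulated data.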

Additional observations from a re-analysis of the deposited data

Results flagged for a closer look

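In the 4 CreNeg libraries the highest Tgfb2 level, 306 CPM in replicate 1, stood far from the others at 66.5 to 103 CPM. It was the 1 such gap among the 10 genes in this group of 4, where chance gives about 1 in 20 groups. CreNeg replicate 1 also had the highest Tgfb3 of its group, 45.9 CPM. Its epicardial and mesothelial marker sum was 239 CPM, against 30.8 to 70.3 CPM in the other CreNeg libraries. The part of this in its Tgfb2 level was not tested. The change of Acvr1c from E14.5 to P14 differed between SAN and RA by 3.87 on the log2(CPM + 1) scale in limma (adjusted p = 0.020), with the limits given in the report. In CrePos replicate 2, which was in no fit reported as the result, Inhba was at 17.95 CPM, above the 2.85 to 10.1 CPM of the CreNeg libraries. Fstl3 was there at 0.672 CPM, above 0.0530 to 0.559 CPM in CreNeg libraries. That library also had 1032 CPM of Myl2, and the part of this in the values was not tested.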

How the results depend on the processing

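Over 119 results of single genes, 1938 alternative values were computed; 80 lost a call, 26 gained one and 0 called values changed sign, while 99 values in 35 results that were not called in either fit changed sign. The numbers below are how many of the 10 genes were called, and the cause of each move was not tested. For SAN at P4 against E14.5 the number was 5, and 3 with a pseudocount of 0.25, without a filter, with equal upper quartiles, in edgeR, in DESeq2 and with only the groups compared. For SAN at P14 against E14.5 it was 4, and 2 in edgeR and with only the groups compared. For SAN at P14 against P4 it was 1, and 0 with only the groups compared. For SAN against RA at E14.5 it was 2, and 1 in edgeR and in DESeq2. In RA it was 2 for P4 against E14.5, with 1 in edgeR and 0 in DESeq2, and 3 for P14 against E14.5, with 1 in edgeR and in DESeq2. For RA at P14 against P4 it was 0, and 1 (Acvr1c) with a pseudocount of 0.25. For the tissues' difference in change it was 1, with 0 at a pseudocount of 0.25, in edgeR and in DESeq2, 2 with the replicate block and 3 with only the groups compared. For CrePos against CreNeg it was 0, with 1 at a pseudocount of 5 (Acvr1c), 1 in DESeq2 (Mstn) and 2 with the replicate block (Tgfb2 and Acvr1c). Leaving out single libraries gave 1 to 4 for SAN at P4 against E14.5, 2 to 4 for SAN at P14 against E14.5, 0 to 2 for SAN at P14 against P4, 1 to 2 for RA at P4 against E14.5, 2 to 3 for RA at P14 against E14.5, 0 to 1 for RA at P14 against P4, 0 to 2 for the difference in change, 2 to 3 for SAN against RA at P14 and 0 to 2 for CrePos against CreNeg. The libraries share only a replicate number: of 9 pairs of SAN and RA libraries with the same number, 3 correlated best with their own number, with r of −0.09 to 0.12. With that number as a block, Fst over the stages, Tgfb3 at P14, the fall of Acvr2b in RA by P14 and the tissues' difference in the change of Tgfb3 also became called. Other pathway genes lower in CrePos numbered 9, with 1 without a filter and in edgeR, 3 with CrePos replicate 2 and 17 with the replicate block. Of the 18 SAN and RA libraries, Acvr1c had 3 or fewer reads in 8, Fst in 5, Acvr2b in 4 and Fstl3 in 3.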
